A study of Homo sapiens with 16 samples.

Results

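The change in expression after 2 h of 17β-estradiol (E2) was compared between T-47D cells, a human breast ductal carcinoma line, and Ishikawa cells, a human endometrial adenocarcinoma line. The quantity tested for each gene was the 2 h log2 fold change in T-47D minus that in Ishikawa, the interaction of cell line and time, so a positive difference is a larger rise or a smaller fall in T-47D. It used 8 of the 16 RNA-seq libraries of the series, 2 replicates for each line at 0 h and 2 h. Cells of all 4 groups had been kept in phenol red-free medium with charcoal-stripped serum, which removes steroid hormones, and were then given vehicle (0 h) or 10 nM E2 (2 h). Of 26364 genes in the deposited count tables, 16756 had enough counts to be tested and 512 (3.06% of those tested) differed between the lines at an adjusted p under 0.05 (edgeR's quasi-likelihood test, Benjamini-Hochberg). Of these, 226 (1.35%) had the larger 2 h change in T-47D and 286 (1.71%) the smaller one, and 1914 genes had an unadjusted p under 0.05. The excess of smaller changes did not hold throughout, since 239 genes were larger and 218 smaller with all 16 libraries in 1 fit, and 323 and 308 without Ishikawa 0 h replicate 2. The sources used here do not say whether replicates were separate cultures, so p-values measure the spread between these samples, which may be technical.

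E2 enters the cell and binds the estrogen receptor, a nuclear receptor encoded by ESR1, which then binds DNA at estrogen response elements and recruits coactivators or corepressors. At 2 h, much of the RNA response is due to genes the receptor acts on directly and to the first genes that their products act on. FOXA1 and GATA3 open chromatin for the receptor in breast cells, and PAX8 and SOX17 are transcription factors of the Müllerian epithelium from which endometrial tumours arise. Breast luminal genes and growth regulators such as GREB1, MYC and PGR are textbook E2 targets.

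The line labels were checked against their marker genes. GATA3 averaged 1230.0 CPM (counts scaled by library size) in the T-47D 0 h libraries and 0.0426 in Ishikawa, while PAX8 averaged 296 in Ishikawa and 0.0485 in T-47D. SOX17 averaged 43.4 in Ishikawa and had 0 counts in all T-47D libraries, which allows up to 3 counts per library. The summed level of 15 breast luminal markers was 9660 to 10100 CPM in T-47D and 523 to 572 in Ishikawa, and that of 15 endometrial and Müllerian markers was 1640 to 1800 in Ishikawa and 62.5 to 70.1 in T-47D. In each Ishikawa library 8 of the 15 luminal markers were under 1 CPM, and in T-47D 8 or 9 of the 15 endometrial ones. The summed level of 15 stromal, immune and endothelial markers was 253 to 317 CPM in Ishikawa and 102 to 116 in T-47D. Of these 15, 9 or 10 were under 1 CPM in each library. The 2 h change differed for none of the 9 tested, 4 of 13 luminal and 1 of 15 endometrial markers, against 3.06% of all genes tested. With 9 genes at that share, having none called says little. Each library held between 41223813 and 54267614 counts. Even numbers were 71.5% to 73.3% of the counts from 1 to 10, so single counts may not be independent fragments. The replicates of Ishikawa 0 h were the least alike, with a chi-square of 10.8 per gene against 3.61 to 6.53 in the other 3 groups, and no pair was identical. In bulk RNA, fewer cells expressing a gene and less RNA per cell cannot be told apart.

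The 512 genes were first sorted by the line in which the 2 h change itself passed the test. In T-47D, 1169 genes changed at 2 h (6.98% of those tested), 555 up (3.31%) and 614 down (3.66%). In Ishikawa, 908 changed (5.42%), 534 up (3.19%) and 374 down (2.23%). Among the 833 genes called in T-47D but not in Ishikawa, only 221 were called for the difference itself, and among the 572 called in Ishikawa but not in T-47D only 166 were. The remaining genes in those sets passed in 1 line without a tested difference between the lines. Of 336 genes called in both lines, 291 moved the same way and 45 moved opposite ways, and all 45 were called for the difference.

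The 512 genes divided into 135 that rose in T-47D alone, 86 that fell in T-47D alone, 125 that rose in Ishikawa alone, 41 that fell in Ishikawa alone, 45 with opposite changes, 41 that rose in both lines by unequal amounts, 19 that fell in both by unequal amounts, and 20 in which neither line's change passed. The difference exceeded 1 on the log2 scale for 172 of the 512. The number of calls depended on single libraries. It was 1058 without Ishikawa 0 h replicate 1, 331 without Ishikawa 2 h replicate 1, 329 without T-47D 2 h replicate 1 and 306 without T-47D 2 h replicate 2. In all 8 such fits 253 of the 512 genes (49.4%) were called, 117 with the larger and 136 with the smaller change in T-47D, and all 512 kept their direction in each setting that gave them a value.

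**Figure D1:**
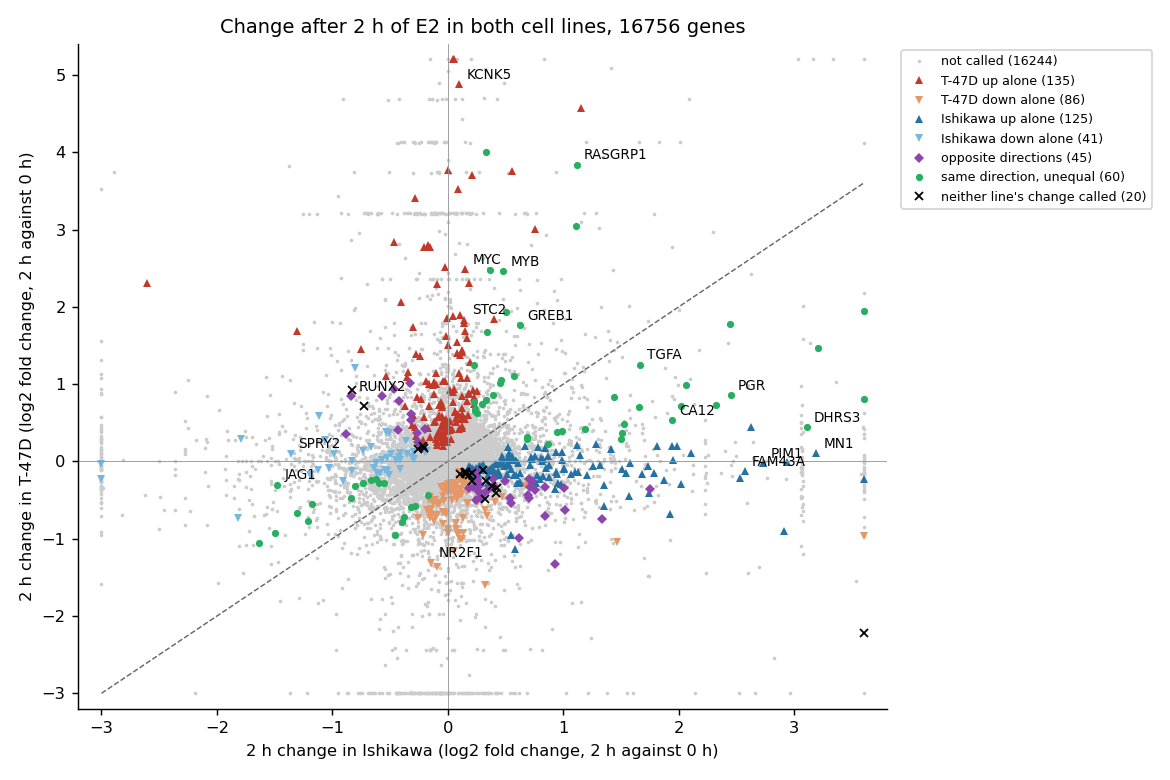
Log2 fold change at 2 h against 0 h in Ishikawa (x axis) and T-47D (y axis) for 16756 genes, each point 1 gene and the dashed line equal change, with values beyond the axes drawn at the edge. The 135 genes that rose in T-47D alone run up the vertical axis, led among the labelled genes by KCNK5, and the 125 that rose in Ishikawa alone run along the horizontal axis with MN1, PIM1 and FAM43A.

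Genes that rose in T-47D alone or more strongly there included many E2 targets known from breast cells. In a list of such targets, 38 of 39 genes were tested, and 12 had the larger and 2 the smaller change in T-47D, with a median difference of 0.54 against -0.02 over all genes tested. In T-47D 25 of the 38 rose and none fell, while 14 rose in Ishikawa. Over all genes tested, 3.31% rose and 3.66% fell in T-47D, and 3.19% rose in Ishikawa. The larger change in T-47D was called for 1.35% of all genes and the smaller for 1.71%. The list was assembled with results of these data known and is not independent evidence of its direction.

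STC2, a secreted glycoprotein hormone (chr5:172741726-172755450 on hg19, minus strand), was measured at 240.3 and 242 CPM in Ishikawa at 0 h, then 267 and 265 CPM at 2 h. In T-47D it was 148 and 148 CPM at 0 h, then 503 and 554 CPM at 2 h. The 2 h libraries lay above the 0 h libraries in both lines, by 3.57-fold in T-47D and by 1.10-fold in Ishikawa, where the change did not pass the test, and STC2 went from the lower level in T-47D at 0 h to the higher one at 2 h. The difference was 1.69 ± 0.07 (log2, standard error; adjusted p = 1.36e-09, edgeR).

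KCNK5, a potassium channel with an acid-sensitive pore (chr6:39156747-39197251, minus strand), had 13.2 and 13.7 CPM in Ishikawa at 0 h, then 14.2 and 14.4 at 2 h. In T-47D it rose from 0.679 and 0.352 CPM to 15.7 and 15.1 CPM. The 4 Ishikawa libraries and both T-47D 2 h libraries lay within a narrow range, and the T-47D 0 h libraries alone were low, at 29 and 14 counts. The difference was 4.79 ± 0.23 (adjusted p = 6.26e-09, edgeR).

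The proximal promoters of 4 genes that rose in 1 line alone, 2 for each line, are shown so that the reference sequence next to the start can be read beside the response. Each is the 250 bases before the RefSeq start, 5′ to 3′ on the gene's strand in the GRCh38.p14 build, with an estrogen response element half-site (GGTCA, either strand) in capitals where one occurs. STC2 (chr5:173328415-173328664, minus strand) and KCNK5 (chr6:39229476-39229725, minus strand) rose in T-47D alone, and FAM43A (chr3:194685633-194685882, plus strand) and ELF3 (chr1:202010337-202010586, plus strand) in Ishikawa alone.
STC2: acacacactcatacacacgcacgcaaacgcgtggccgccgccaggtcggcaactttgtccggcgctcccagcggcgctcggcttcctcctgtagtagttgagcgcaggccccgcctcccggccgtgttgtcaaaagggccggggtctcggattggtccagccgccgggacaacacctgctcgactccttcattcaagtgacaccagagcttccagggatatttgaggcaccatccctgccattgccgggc
KCNK5: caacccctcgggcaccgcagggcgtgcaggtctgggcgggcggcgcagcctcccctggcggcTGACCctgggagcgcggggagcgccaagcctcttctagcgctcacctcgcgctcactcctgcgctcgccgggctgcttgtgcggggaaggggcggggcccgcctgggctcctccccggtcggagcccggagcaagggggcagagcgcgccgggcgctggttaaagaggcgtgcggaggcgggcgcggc
FAM43A: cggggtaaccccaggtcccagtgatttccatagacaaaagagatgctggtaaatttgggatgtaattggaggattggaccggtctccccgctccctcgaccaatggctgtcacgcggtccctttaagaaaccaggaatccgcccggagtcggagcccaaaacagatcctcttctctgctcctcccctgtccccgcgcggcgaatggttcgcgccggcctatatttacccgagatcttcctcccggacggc
ELF3: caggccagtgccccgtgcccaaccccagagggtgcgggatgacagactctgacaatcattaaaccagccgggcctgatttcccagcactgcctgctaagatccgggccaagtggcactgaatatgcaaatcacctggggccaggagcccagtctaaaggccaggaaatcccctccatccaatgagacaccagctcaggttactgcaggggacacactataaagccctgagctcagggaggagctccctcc

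KCNK5 held 1 half-site and the other 3 windows held none. Over the 11777 tested genes that the promoter table held under the same symbol and chromosome, 30.1% of windows had a half-site and 1 had a full palindromic element, the half-site and its reverse complement 3 bases apart. The table held 373 of the 512 called genes, and 103 of these windows (27.6%) had a half-site. The share was 35.1% of 94 windows for genes that rose in T-47D alone. It was 23.9% of 92 windows for genes that rose in Ishikawa alone. Whether these shares differ from that of all genes was not tested. Called genes missing from the table could not be read, so no conclusion is drawn from the shares. A window without a match says only that these letters are not in it.

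MYC, the growth-promoting transcription factor, was at 114 and 117 CPM in Ishikawa at 0 h, then 128 and 129 at 2 h. In T-47D it rose from 5.78 and 4.90 CPM to 27.2 and 32.9 CPM. The T-47D 2 h libraries stayed below all Ishikawa libraries after a 5.62-fold rise there, while the 1.11-fold change in Ishikawa did not pass the test, and the gap between the lines narrowed from 21.7-fold to 4.27-fold. The difference was 2.34 ± 0.12 (adjusted p = 2.6e-08, edgeR). MYB and MYBL1, transcription factors of the MYB family, rose in both lines and by more in T-47D. MYB went from 6.77 and 5.43 to 33.6 and 33.8 CPM in T-47D and from 3.62 and 3.49 to 5.08 and 4.87 CPM in Ishikawa (difference 1.98 ± 0.17). MYBL1 went from 42.3 and 44.8 to 134 and 145 CPM in T-47D and from 14.7 and 12.5 to 17.3 and 17.0 CPM in Ishikawa (difference 1.34 ± 0.11). These 3 were all of the called genes in a list of 26 genes of G1 entry, whose median difference was 0.01. The lists share members, so their counts are not separate results. MYB and MYBL1 were also in the breast target list, and MYC was in the list of immediate-early genes described below. The share called over all genes tested was 3.06%.

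XBP1 and GREB1 were already higher in T-47D at 0 h, and the gap widened. XBP1, a transcription factor of the secretory pathway, went from 580.1 and 488 to 1252 and 1285 CPM in T-47D and from 126 and 121 to 145 and 144 CPM in Ishikawa. GREB1, a coregulator of the estrogen receptor (chr2:11622467-11782914, plus strand), went from 116 and 127 to 399 and 423 CPM in T-47D and from 8.48 and 9.23 to 13.2 and 14.1 CPM in Ishikawa. Both rose in both lines with no overlap of 0 h and 2 h libraries, and the T-47D to Ishikawa ratio grew from 4.33 to 8.77 for XBP1 and from 13.7 to 30.1 for GREB1. The differences were 1.02 ± 0.09 and 1.13 ± 0.10 (adjusted p = 2.38e-06 and 2.49e-06, edgeR).

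Smaller differences of the same sign were seen for SIAH2, a ubiquitin ligase (0.53 ± 0.08), SLC7A5, the large neutral amino acid transporter (0.56 ± 0.06), and FKBP4, a chaperone of steroid receptors (0.57 ± 0.05). SLC7A5 rose from a mean of 474 to 959 CPM in T-47D and from 1590.0 to 2177 in Ishikawa. The receptors NPY1R (1.86 ± 0.23) and ADORA1 (1.60 ± 0.17) rose in T-47D alone. ADORA1, the adenosine A1 receptor, was at 1.78 and 1.53 CPM in T-47D at 0 h, then 4.32 and 4.23 at 2 h, while the 4 Ishikawa libraries held 45.3 to 58.6 CPM. IL6ST, the gp130 signalling subunit of IL-6 family receptors, rose from 211 and 198 to 368 and 379 CPM in T-47D, with 147 and 123 CPM in Ishikawa at 0 h, then 152 and 152 at 2 h (difference 0.69 ± 0.09). FMN1, an actin nucleator, and PFKFB3, a regulator of glycolysis, were picked after their values were seen for their small p. FMN1 went from 67.7 and 61.8 to 195 and 205 CPM in T-47D and stayed between 311 and 335 in Ishikawa, and PFKFB3 went from 42.1 and 42.6 to 119.8 and 128 CPM in T-47D and stayed between 32.3 and 34.5 in Ishikawa.

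RASGRP1, a Ras guanine nucleotide exchange factor, and TGM2, a transglutaminase, were low in T-47D at 0 h and rose in both lines. RASGRP1 went from 0.937 and 0.729 to 12.2 and 11.8 CPM in T-47D and from 3.75 and 3.70 to 8.07 and 8.07 CPM in Ishikawa, so the order of the lines switched. TGM2 went from 0.140 and 0.151 to 2.44 and 2.31 CPM in T-47D and from 67.2 and 74.4 to 87.3 and 90.6 CPM in Ishikawa, which left Ishikawa 37.5-fold higher at 2 h after 486-fold at 0 h. The differences were 2.72 ± 0.22 and 3.67 ± 0.27. The TGM2 value in T-47D at 0 h rests on 6 counts in each library.

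**Figure D2:**
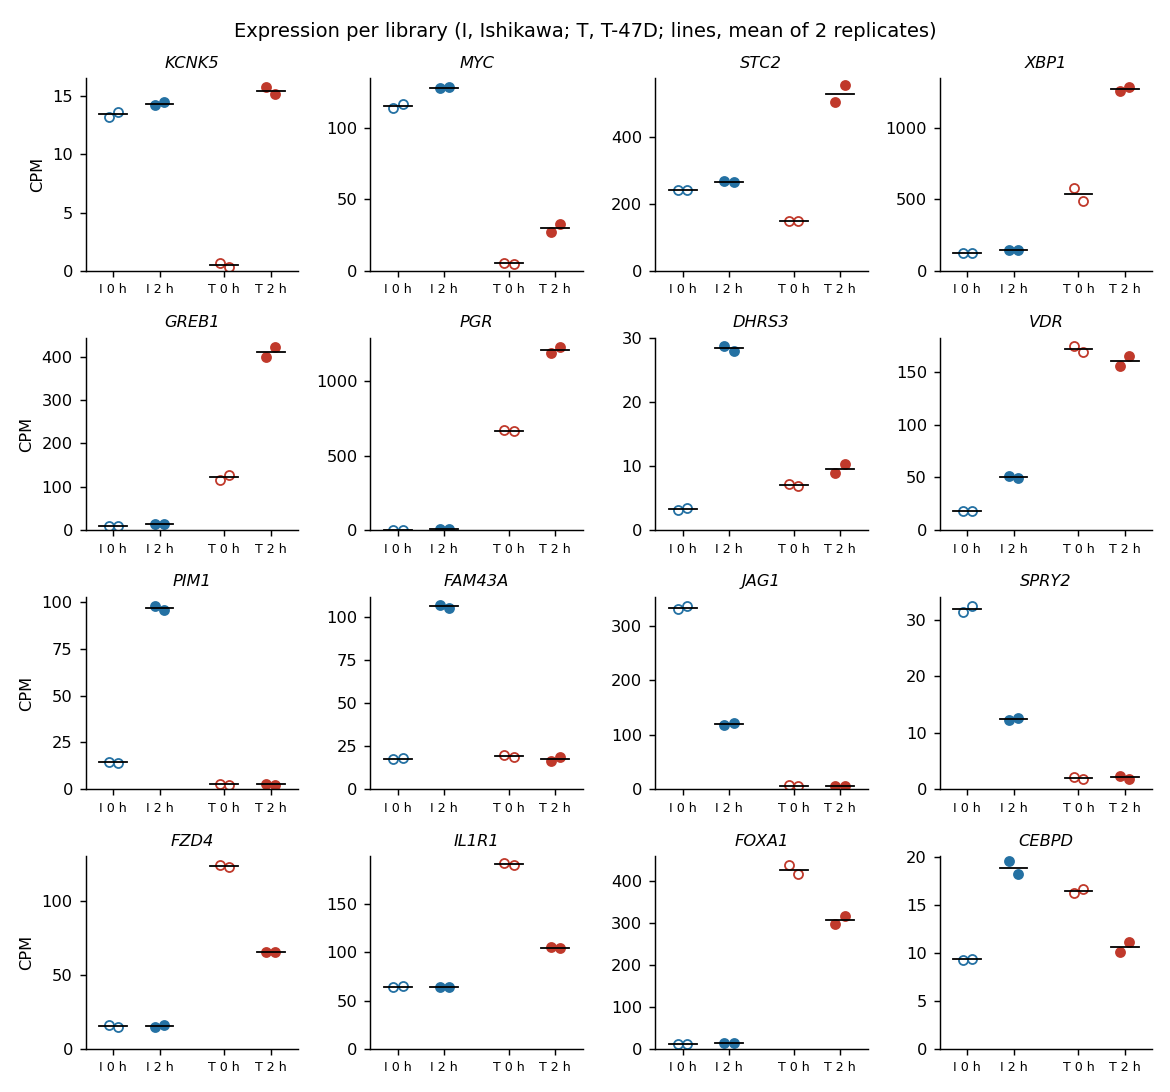
Expression in CPM (y axis, each panel from 0) of 16 genes in the 8 libraries, open circles at 0 h and filled circles at 2 h, Ishikawa in blue and T-47D in red, with a bar at the mean of 2 replicates. KCNK5, STC2 and MYC rise mainly in T-47D, DHRS3, VDR, PIM1 and FAM43A in Ishikawa, JAG1 and SPRY2 fall mainly in Ishikawa, FZD4 and IL1R1 in T-47D, and FOXA1 and CEBPD move in opposite directions.

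Genes with the smaller change in T-47D included 125 that rose in Ishikawa alone and 22 that rose in both lines. VDR, the vitamin D receptor (chr12:48235320-48336831, minus strand), had 17.7 and 17.9 CPM in Ishikawa at 0 h, 51.6 and 49.9 at 2 h, and 156 to 175 CPM in the 4 T-47D libraries. All 4 T-47D libraries were above all Ishikawa libraries, and the ratio between the lines fell from 9.67 to 3.16. The difference was -1.61 ± 0.08 (adjusted p = 6.26e-09, edgeR). FAM43A, which starts from like levels in both lines, rose from 17.4 and 18.3 to 107 and 105 CPM in Ishikawa and read 20.0 and 18.6 CPM at 0 h, then 16.6 and 18.8 CPM at 2 h in T-47D. Its 0 h and 2 h libraries overlapped in T-47D and not in Ishikawa (difference -2.70 ± 0.11, adjusted p = 1.36e-09, edgeR). PIM1, a serine/threonine kinase that promotes survival, rose from 14.8 and 14.3 to 97.6 and 95.5 CPM in Ishikawa and held 2.47 to 3.08 CPM in T-47D (difference -2.76 ± 0.16). MN1, a transcriptional coregulator, rose from 6.41 and 6.16 to 57.7 and 57.0 CPM in Ishikawa against 2.99 to 4.54 CPM in T-47D (difference -3.08 ± 0.20). For both, each Ishikawa library was above all T-47D libraries at either time. MMP17, a membrane-bound metalloproteinase, rose from 4.98 and 3.98 to 25.3 and 26.5 CPM in Ishikawa, past the 16.2 to 19.1 CPM of T-47D (difference -2.75 ± 0.15).

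In a list of 29 steroid and retinoid receptors and enzymes, 7 had the smaller change in T-47D and none the larger, against 1.71% and 1.35% of all genes tested. The median difference was -0.12. In each line 5 members rose, while 5 fell in T-47D and 2 in Ishikawa, so a smaller change was in some members a fall in T-47D. Of all genes tested, 3.31% rose and 3.66% fell in T-47D, and 3.19% rose and 2.23% fell in Ishikawa. PGR, the progesterone receptor (chr11:100900355-101000544, minus strand), rose in both lines. It went from 1.34 and 0.968 to 6.57 and 6.09 CPM in Ishikawa and from 670.3 and 665 to 1186 and 1229 CPM in T-47D, 5.48-fold and 1.81-fold, with no overlap of 0 h and 2 h libraries in either line (difference -1.60 ± 0.13). On the CPM scale the rise was greater in T-47D, and on the log2 scale that was tested it was greater in Ishikawa. DHRS3, a retinaldehyde reductase, went from 3.13 and 3.45 to 28.7 and 28.0 CPM in Ishikawa and from 7.16 and 6.91 to 8.92 and 10.3 CPM in T-47D (difference -2.66 ± 0.16). CYP1B1, which hydroxylates E2, rose 0.94 ± 0.06 in Ishikawa and 0.38 ± 0.06 in T-47D on the log2 scale (difference -0.56 ± 0.08). When all 16 libraries were fitted together the difference was -0.53 and not called (adjusted p = 0.207, edgeR). NR2F1, an orphan nuclear receptor, fell in T-47D alone, from 24.8 and 23.3 to 9.50 and 9.92 CPM (difference -1.17 ± 0.18). RXRA, the common partner of VDR and retinoid receptors, fell in T-47D by a small amount (difference -0.28 ± 0.06). With all 16 libraries its difference was -0.25 and not called (adjusted p = 0.0631, edgeR). Its call was also lost in 5 of the 8 fits without 1 library. TSC22D3, a glucocorticoid-induced gene, was lost in 3 of those 8.

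Other genes with the smaller change in T-47D included CA12, a carbonic anhydrase and breast E2 target, which went from 4.86 and 4.75 to 18.0 and 19.0 CPM in Ishikawa and from 381 and 377 to 536 and 561 CPM in T-47D (difference -1.41 ± 0.08). TOB1, an antiproliferative protein, rose from 35.4 and 30.8 to 103 and 106 CPM in Ishikawa and from 244 and 239 to 394 and 394 in T-47D (difference -0.95 ± 0.08). KLF9, a repressor-type zinc finger factor, rose from 3.94 and 3.74 to 8.88 and 8.86 CPM in Ishikawa alone (difference -1.38 ± 0.17), as did SKIL, a SMAD corepressor, from 215 and 187 to 374 and 396 CPM (difference -0.82 ± 0.09). RBM24, an RNA-binding protein, rose from 0.0426 and 0.0841 to 1.96 and 2.39 CPM in Ishikawa and from 6.13 and 5.43 to 22.9 and 21.6 CPM in T-47D. Its difference of -3.10 ± 0.41 rests on 2 and 4 counts in Ishikawa at 0 h. The stress chaperone cofactor BAG3 and the epithelial transcription factor ELF3 were picked after their values were seen. BAG3 rose from 78.9 and 81.4 to 233 and 229 CPM in Ishikawa and from 57.7 and 60.3 to 81.8 and 82.5 CPM in T-47D, and ELF3 from 92.9 and 90.6 to 223 and 216 CPM in Ishikawa with 61.8 to 67.5 CPM in T-47D.

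TGFA, a ligand of the EGF receptor and 1 of the genes named in the study, rose in both lines. It went from 155 and 156 to 498 and 487 CPM in Ishikawa and from 13.7 and 12.4 to 30.9 and 31.1 CPM in T-47D, with a difference of -0.41 ± 0.08. The call was lost without Ishikawa 2 h replicate 1 (adjusted p = 0.0767) and without T-47D 0 h replicate 1 (adjusted p = 0.0506). ANO1, a chloride channel, rose from 5.67 and 5.91 to 12 and 11.1 CPM in Ishikawa and held 23.5 to 24.6 CPM in T-47D. Its difference was -0.97 ± 0.13. With all 16 libraries it was -0.94 and not called (adjusted p = 0.21, edgeR). PEG10, an imprinted gene derived from a retrotransposon, had a difference of -0.34 ± 0.07. Its call was lost in 4 of the 8 fits without 1 library. With all 16 libraries the difference was -0.3 and not called (adjusted p = 0.718, edgeR). TFF1, a classical breast target, had 0 counts in all 4 Ishikawa libraries and 0.773 and 0.603 CPM in T-47D at 0 h against 1.11 and 1.25 CPM at 2 h, so no difference between the lines can be read from it. TOP2A, a proliferation marker, was at 527 and 446 CPM in Ishikawa at 0 h, then 538 and 538 at 2 h, and at 585 to 616 CPM in T-47D. Its difference of -0.12 ± 0.08 was not called, but was called without Ishikawa 0 h replicate 1 (-0.24, adjusted p = 0.00694).

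In 45 genes E2 moved expression in opposite directions, 13 up in T-47D and down in Ishikawa and 32 down in T-47D and up in Ishikawa. CEBPD, a C/EBP transcription factor, rose from 9.29 and 9.40 to 19.6 and 18.3 CPM in Ishikawa and fell from 16.3 and 16.7 to 10.2 and 11.2 CPM in T-47D. The 0 h and 2 h libraries did not overlap in either line (difference -1.65 ± 0.14, adjusted p = 2.49e-06, edgeR). PRR15 went from 22 and 22.9 to 39.1 and 41.3 CPM in Ishikawa and from 11.9 and 11.7 to 7.06 and 7.42 CPM in T-47D (difference -1.55 ± 0.12). INHBB, the activin beta B subunit, rose from 0.596 and 0.421 to 1.78 and 1.67 CPM in Ishikawa and fell from 259 and 263 to 199.8 and 206 CPM in T-47D (difference -2.12 ± 0.18). IER5, an immediate-early gene, rose from 29.3 and 28.6 to 50 and 53.6 CPM in Ishikawa and fell from 51.4 and 50.3 to 40.2 and 40.7 CPM in T-47D (difference -1.17 ± 0.09). RHOB, a small GTPase, moved likewise by less (difference -0.58 ± 0.08).

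The opposite arrangement was seen for RUNX2 and ARTN. RUNX2, a transcription factor known from bone, went from 5.08 and 5.25 to 9.17 and 9.42 CPM in T-47D and from 2.45 and 2.17 to 1.20 and 1.37 CPM in Ishikawa (difference 1.69 ± 0.23). ARTN, a ligand of the GDNF family, went from 4.75 and 4.95 to 8.13 and 9.39 CPM in T-47D and from 6.63 and 7.87 to 5.35 and 4.44 CPM in Ishikawa (difference 1.42 ± 0.21). ATF3, a stress-induced factor, had like levels at 0 h, 23.8 and 21.6 CPM in T-47D and 23.0 and 20.8 in Ishikawa, and was at 29.3 and 28.7 against 12.8 and 11.1 at 2 h (difference 1.24 ± 0.13). Picked after their values were seen, the epithelial genes KRT18 (keratin 18) and GRHL2 (a grainyhead factor) rose in T-47D and fell in Ishikawa (differences 0.62 ± 0.05 and 0.86 ± 0.06), while CLDN4 (a tight junction claudin) and the kinase MAP3K1 did the reverse (differences -0.73 ± 0.06 and -1.14 ± 0.07). EDN2 and PALMD, which the naming rule also took, had under 6 CPM in all libraries, and the EDN2 call was lost without T-47D 0 h replicate 1 (-1.71, adjusted p = 0.0502) and without T-47D 2 h replicate 1 (-2.01, adjusted p = 0.0546).

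**Figure D3:**
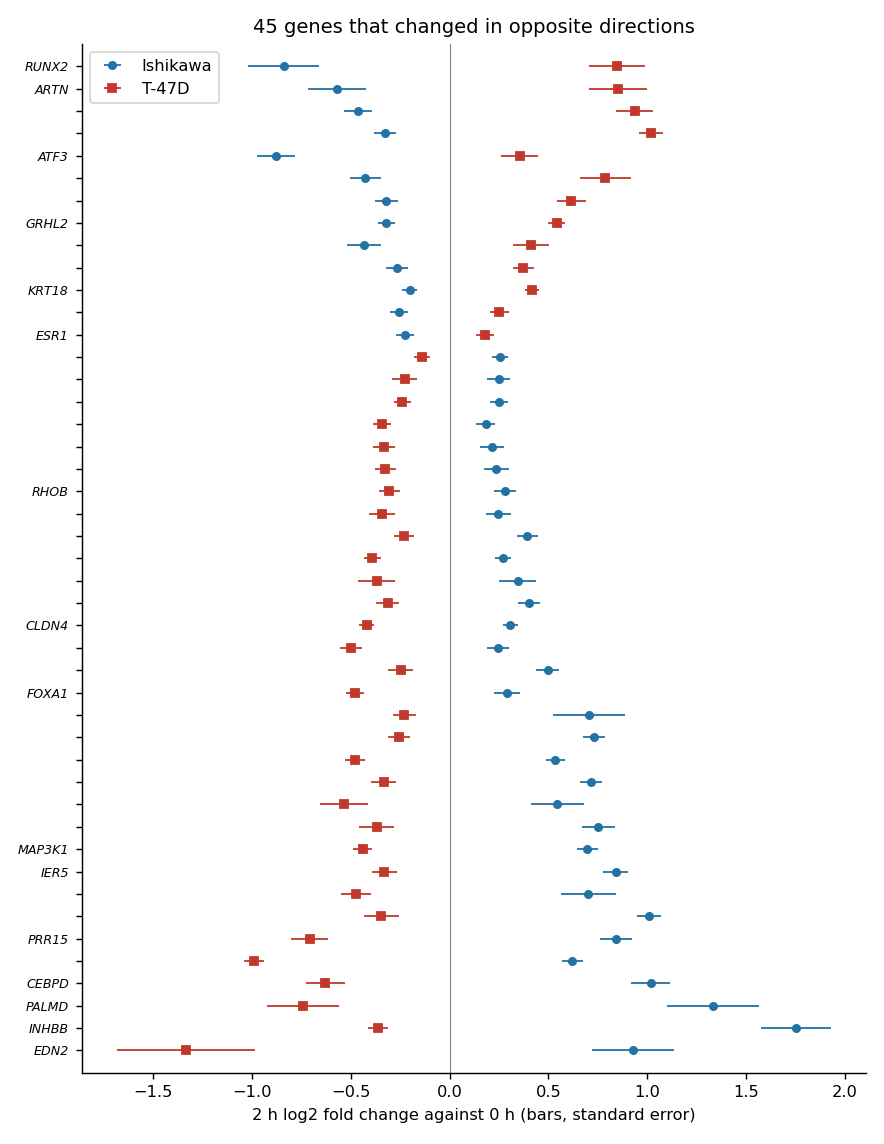
Log2 fold change at 2 h against 0 h (x axis) for the 45 genes (y axis) that passed the test in both lines with opposite signs. Ishikawa is drawn as blue circles and T-47D as red squares. Bars show the standard error from the fit of all 4 groups together, with 2 replicates per group. The 13 genes at the top rise in T-47D and fall in Ishikawa, and the 32 below them do the reverse, with the genes described in the text named on the axis.

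The receptor gene and FOXA1 were among the genes with opposite changes. ESR1 fell in Ishikawa from 243 and 229.7 to 201 and 203 CPM and rose in T-47D from 173 and 168 to 191 and 196 CPM, so that the Ishikawa level was 1.38-fold higher at 0 h and 1.04-fold higher at 2 h. The 0 h and 2 h libraries did not overlap within either line (difference 0.41 ± 0.06, adjusted p = 0.00117, edgeR). FOXA1, the pioneer factor, fell in T-47D from 437 and 417 to 297 and 316 CPM and rose in Ishikawa from 11.2 and 11.5 to 14.2 and 13.6 CPM (difference -0.77 ± 0.08). TFAP2A, another partner factor of breast cells, fell in T-47D from 218 and 227 to 133 and 144 CPM, with 6.18 to 6.35 CPM in Ishikawa (difference -0.67 ± 0.10). The coactivator NCOA3 fell in T-47D alone (difference -0.30 ± 0.06), a call that was lost in 6 of the 8 fits without 1 library. Of 22 tested genes in this list, 1 had the larger and 4 the smaller change in T-47D, against 1.35% and 1.71% of all genes tested. Their median difference was -0.09.

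Immediate-early genes, which growth signals induce without new protein, differed in 12 of the 33 tested, against 3.06% of all genes tested. Of the 12, 9 had the larger and 3 the smaller change in T-47D, against 1.35% and 1.71% of all genes. The median difference over the 33 was 0.24. In T-47D 6 of the 33 rose and 7 fell, against 3.31% and 3.66% of all genes tested. In Ishikawa 4 rose and 9 fell, against 3.19% and 2.23%. For JUNB and JUN, components of AP-1, the larger value in T-47D was a shallower fall. JUNB fell from 64.3 and 69.6 to 29.4 and 30.0 CPM in Ishikawa and from 40.2 and 38.1 to 25.8 and 27.8 CPM in T-47D (difference 0.63 ± 0.10). JUN fell in both lines (difference 0.49 ± 0.10), a call that was lost without T-47D 0 h replicate 1 (adjusted p = 0.0503) and without T-47D 2 h replicate 2 (adjusted p = 0.0832). FOSL2, an AP-1 partner, rose from 24.9 and 25.8 to 45.7 and 47.1 CPM in T-47D alone (difference 0.99 ± 0.12), and KLF10, a TGF-beta-inducible zinc finger factor, from 19.6 and 17.6 to 28.2 and 28.8 CPM (difference 0.52 ± 0.08). KLF4 rose in Ishikawa alone, from 2.90 and 2.67 to 4.48 and 4.96 CPM, and was at 11.2 to 14.5 CPM in T-47D (difference -1.04 ± 0.18). EGR3 and ARC had under 4 CPM in every library. The EGR3 difference of 3.76 ± 0.78 rests on 2 counts in each T-47D 0 h library and was lost in 3 of the 8 fits without 1 library.

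Members of the Notch and Wnt pathways moved in both directions, and 6 of the 35 tested fell in each line, while 3 rose in Ishikawa and 2 in T-47D. The shares of all genes tested that fell were 2.23% in Ishikawa and 3.66% in T-47D, and 3.19% and 3.31% rose. JAG1, a Notch ligand (chr20:10618332-10654647, minus strand), fell from 329.9 and 336 to 118 and 121 CPM in Ishikawa and from 7.4 and 6.81 to 6.03 and 5.50 CPM in T-47D, by 2.79-fold and 1.23-fold. The 0 h and 2 h libraries did not overlap in either line, and Ishikawa stayed 20.7-fold higher at 2 h after 46.9-fold at 0 h (difference 1.18 ± 0.10, adjusted p = 1.95e-06, edgeR). NOTCH1, a receptor of this ligand, fell from 193 and 205 to 127 and 133 CPM in Ishikawa and was at 30.4 to 35 CPM in T-47D (difference 0.46 ± 0.08). FZD4, a Wnt receptor, fell in T-47D alone, from 125 and 124 to 65.6 and 65.6 CPM, and held 14.5 to 16.2 CPM in Ishikawa (difference -0.93 ± 0.10). Of the 35 Notch and Wnt genes tested, 4 had the larger and 4 the smaller change in T-47D, against 1.35% and 1.71% of all genes tested. Their median difference was -0.14.

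SPRY2, a feedback inhibitor of receptor tyrosine kinase signalling, fell from 31.4 and 32.5 to 12.3 and 12.6 CPM in Ishikawa and held 1.83 to 2.37 CPM in T-47D, where the times overlapped (difference 1.46 ± 0.19). SPRY1 fell in both lines and further in Ishikawa, from 76 and 73.1 to 30.0 and 30.4 CPM (difference 0.64 ± 0.12), and its call was lost without T-47D 2 h replicate 2 (0.58, adjusted p = 0.0871). Of 23 MAPK feedback genes tested, 6 fell in Ishikawa and 8 in T-47D, and 2 had the larger and 1, the phosphatase DUSP5, the smaller change in T-47D (difference -0.74 ± 0.15), and the DUSP5 call was lost in 4 of the 8 fits without 1 library. For all genes tested, 3.06% were called for the difference, and 2.23% fell in Ishikawa and 3.66% in T-47D. BMF, a BH3-only apoptosis gene, fell from 22.5 and 20.3 to 8.95 and 9.70 CPM in Ishikawa, with 35.7 to 41.6 CPM in T-47D (difference 1.02 ± 0.12). CITED2, a transcriptional coregulator, fell from 44.2 and 44.8 to 19.7 and 18.8 CPM in Ishikawa and from 424 and 422 to 236 and 261 CPM in T-47D (difference 0.45 ± 0.08). RND3, an atypical small GTPase, fell in Ishikawa alone, from 71.5 and 62.7 to 39.4 and 41.4 CPM (difference 0.87 ± 0.11).

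Cytokine receptors fell or rose by line. IL1R1, the signalling IL-1 receptor, fell in T-47D from 193 and 191 to 105 and 104 CPM and held 63.7 to 64.6 CPM in Ishikawa (difference -0.87 ± 0.07, adjusted p = 9.08e-07, edgeR). IL1R2, the decoy IL-1 receptor, rose in Ishikawa from 55.4 and 55.4 to 82.6 and 83.0 CPM, and had 0.144 to 0.445 CPM in T-47D (difference -1.71 ± 0.36). With all 16 libraries its difference was -1.68 and not called (adjusted p = 0.114, edgeR). Its call was also lost in 3 of the 8 fits without 1 library. The IL6R difference of -1.27 ± 0.28 was lost in 5 of those 8. Of 21 genes of this list tested, 1 had the larger and 3 the smaller change in T-47D, against 1.35% and 1.71% of all genes tested. Their median difference was 0.06.

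Members called in the other lists are set beside the 3.06% called over all genes tested, 1.35% with the larger and 1.71% with the smaller change in T-47D. Of all genes tested, 3.31% rose in T-47D and 3.19% in Ishikawa. Of 28 genes of ribosome biogenesis and polyamine synthesis, 3 had the larger change in T-47D (RRS1 0.46 ± 0.08, WDR43 0.42 ± 0.09 and NOP16 0.40 ± 0.10) and none the smaller, with a median of 0.07, and 11 rose in T-47D and 5 in Ishikawa. The calls were lost in 1, 4 and 6 of the 8 fits without 1 library, respectively, and that of NOP16 with the replicate number as a block (adjusted p = 0.0572). Of 30 TGF-beta and BMP pathway genes 3 had the smaller change and none the larger (median -0.09). Among 29 antiproliferative genes 2 had the larger and 4 the smaller (median -0.05), among 17 small GTPase regulators and RBM paralogs 3 and 2 (median -0.14), and among 13 EGF-family genes none and 1 (median 0.16). Of 26 genes named for E2 responses of Ishikawa cells, 3 had the larger and 5 the smaller change in T-47D (median -0.06). None of 15 housekeeping genes was called, and their median difference was -0.03.

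**Figure D4:**
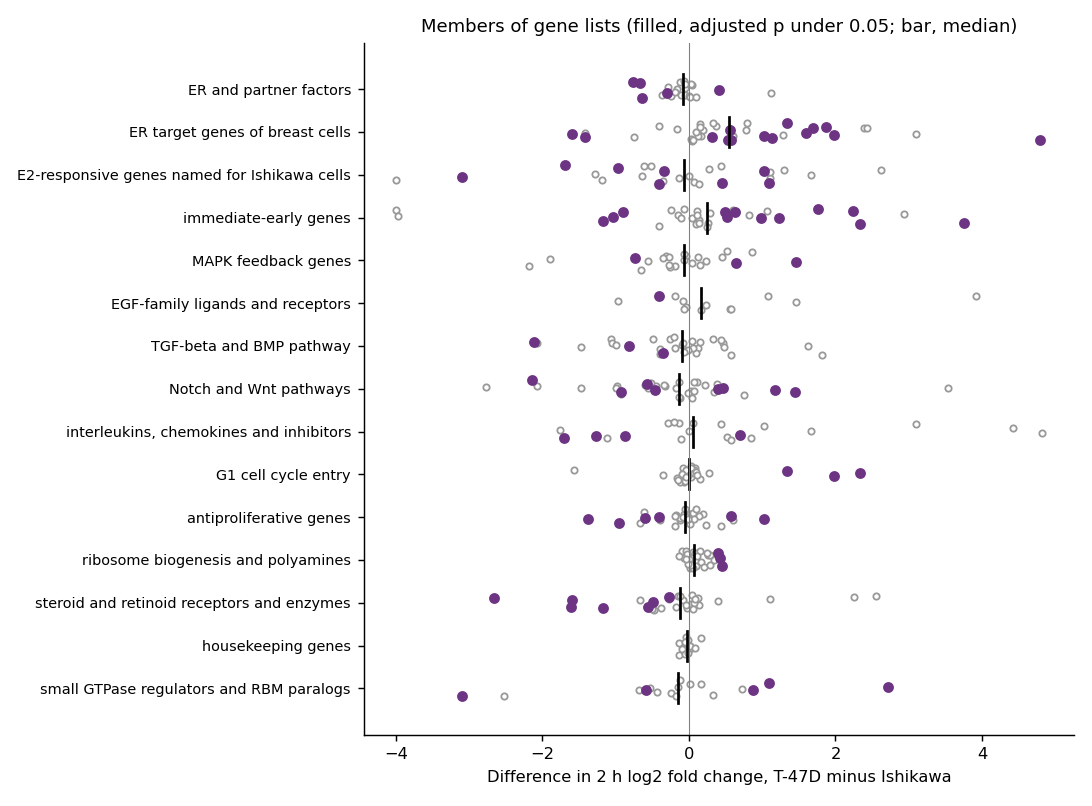
Difference in the 2 h log2 fold change, T-47D minus Ishikawa (x axis, values beyond -4 or 5 drawn at those limits), for the tested members of 15 gene lists (y axis), with filled points at an adjusted p under 0.05 and a bar at each list's median. The median of the breast E2 target list is 0.54, and that of the housekeeping list is -0.03.

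The 0 h level in each line is set beside the difference here without a correlation or a test, because both are computed from the same 0 h libraries and a chance deviation there moves both. Of the 226 genes with the larger change in T-47D, 135 were lower in T-47D than in Ishikawa at 0 h and 91 higher. Of the 286 with the smaller change, 96 were lower and 190 higher. Over all genes tested 8565 of 16756 were lower in T-47D. Genes that rose in T-47D alone had a median 0 h level of 21.5 CPM in T-47D and 31.9 in Ishikawa, and those that rose in Ishikawa alone 33.3 and 29.7 CPM. Genes that fell in T-47D alone had a median of 91.3 CPM in T-47D and 41.1 in Ishikawa, and those that fell in Ishikawa alone 26.2 and 46.7 CPM. In both classes that fell, the median was higher in the line in which the genes fell. The medians over all genes tested were 17.7 and 18.5 CPM.

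Most of the 512 genes were expressed in both lines before E2. The 0 h level was under 1 CPM in T-47D for 35 of them (6.84%) and in Ishikawa for 37 (7.23%). The shares over all genes tested were 21.8% and 20.6%, so the called genes held fewer low ones. Genes with few counts are harder to call, so no conclusion about the response is drawn from these shares. Of the 512, 326 (63.7%) were within 4-fold between the lines, against 74.0% of all genes tested. With the test limited to genes at or above 1 CPM at 0 h in both lines, 479 of 11976 were called, 450 of them among the 512. STC2 and RASGRP1 stand for the 33 genes with the larger change that were lower in T-47D at 0 h and higher at 2 h, and MMP17 for the 37 with the smaller change that were higher in T-47D at 0 h and lower at 2 h. Among all genes tested, 448 and 455 switched order in these ways. At the other end, PGR was 578-fold higher in T-47D at 0 h and 191-fold at 2 h, CA12 78.9-fold and 29.7-fold, and INHBB 513-fold and 118-fold, so the ratios shrank by a factor and the order held.

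**Figure D5:**
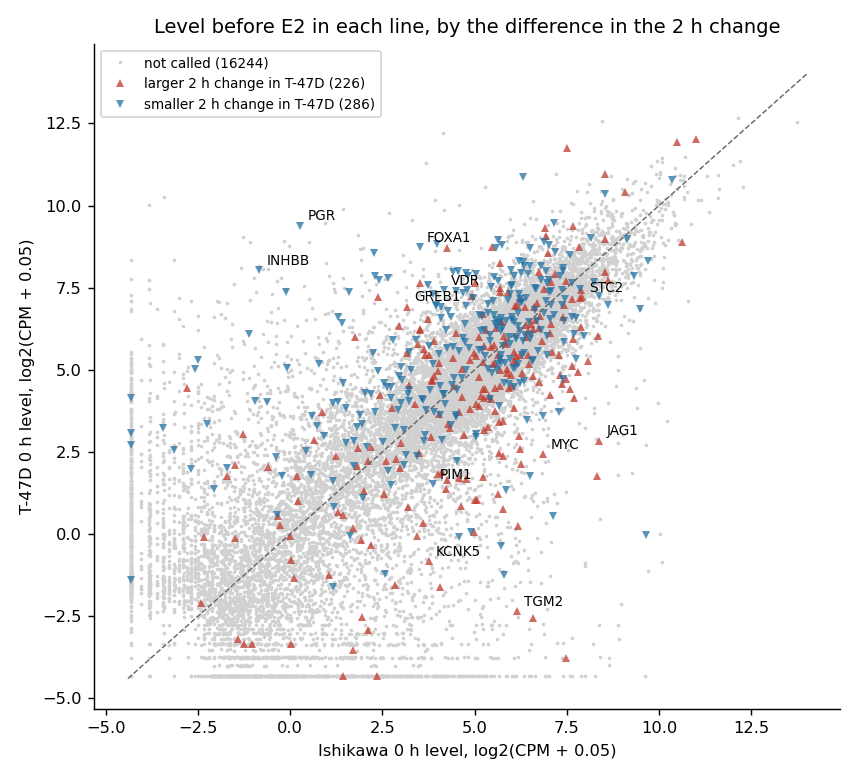
Mean 0 h level of 16756 genes in Ishikawa (x axis) and T-47D (y axis), both as log2(CPM + 0.05), with the 226 genes with the larger 2 h change in T-47D as red upward triangles, the 286 with the smaller change as blue downward triangles and equal levels on the dashed line. Called genes lie on both sides of the line, with 135 of the 226 below it and 190 of the 286 above it.

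Some of the largest fitted differences belong to genes near the floor of detection in 1 line and are given as counts. MAP6 had 0 and 0 counts in T-47D at 0 h, then 8 and 6 at 2 h, and 116 to 155 in Ishikawa. FAM107A had 0 and 0 and then 6 and 4 counts in T-47D and 224 to 297 in Ishikawa. In Ishikawa, ZNF836 had 0 and 0 counts at 0 h, then 2 and 10 at 2 h, NDP 0 and 0 and then 2 and 4, PGLYRP2 0 and 0 and then 8 and 8, and FAM155A 4 and 5 and then 0 and 0. The fitted values of these 6 genes are no bound on a fold, and each call was lost in 6 or more of the 8 fits without 1 library. ADRA2A, an alpha-2 adrenergic receptor, had 6 to 8 counts in the Ishikawa libraries and rose from 52 and 23 to 450 and 398 counts in T-47D. STC1, a paralogue of STC2, rose from 3.37 and 3.29 to 10.8 and 10.6 CPM in T-47D and had 4 to 18 counts in Ishikawa, and its difference of 2.99 was 2.00 without Ishikawa 0 h replicate 1 (adjusted p = 0.133). VARS, valyl-tRNA synthetase, lies in the major histocompatibility complex, where alternate haplotypes of the assembly can share reads, so its difference of -3.81 ± 0.36 is uncertain. With all 16 libraries it was -3.78 and not called (adjusted p = 0.0541, edgeR).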

How the data were processed

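Gene counts of RNA-seq libraries from Ishikawa and T-47D cells at 0 h and 2 h of 10 nM E2 were analysed, with groups and replicate numbers from the sample labels. The libraries were directional and poly(A)-selected. Alignment (HISAT2, hg19) and gene assignment (featureCounts) were done by the authors, and the deposited values are raw counts, 1 table per cell line. Versions, the strand setting and how mates and multiply aligned reads were counted are not given in the sources used here, so overlapping, antisense and near-identical genes cannot be told apart in these counts. The labels and the paper's methods differ on the length of hormone deprivation.

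edgeR 4.0.16 (with limma 3.58.1, in R 4.3.3) was used. Genes were filtered with filterByExpr and libraries were scaled by TMM. The 4 groups were fitted as 1 factor, and the interaction, each line's 2 h change and the 0 h level were tested as contrasts with the quasi-likelihood F-test. Adjusted p-values are Benjamini-Hochberg over the 16756 genes tested, and 0.05 was the threshold. Standard errors are the absolute log2 fold change over the root of F, and the biological coefficient of variation was 5.53%. CPM are on TMM-scaled totals. The script was tested on simulated data.

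Genes and lists were chosen with earlier results of these data known. The rule for named genes took the 12 largest differences in each direction among called genes with a mean of 50 counts or more and no overlap between the lines in the replicate differences, the 8 strongest opposite changes, the 6 largest differences among genes that moved the same way in both lines, called members of the lists, ESR1 and genes the paper names. Not all are described, and some genes are not reported here. Alternatives were DESeq2 1.42.0, RLE scaling, other filters and thresholds, all 16 libraries in 1 fit, thinning to the smallest total, the replicate number as a block within each line and leaving out each library in turn. Replicates with the same number showed little shared deviation over the 16756 genes tested (correlation 0.0269 in Ishikawa and 0.0167 in T-47D), and the main fit used no block. Counting noise in genes with few reads lowers such a correlation, so it cannot decide whether samples with the same number were handled together. Gene positions are from GENCODE on GRCh37 (hg19), and promoter sequences from RefSeq on GRCh38.p14. The 4 h and 8 h libraries entered only the fit of all 16, and other data of the series were not used here.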

Additional observations from a re-analysis of the deposited data

Results flagged for a closer look

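The interaction test itself marked 512 genes as differing between the cell lines, among them 13 that rose in T-47D and fell in Ishikawa and 32 that did the reverse. The fitted differences (log2, T-47D minus Ishikawa) of the genes taken by the naming rule for size or opposite direction are given by kind, and no explanation was tested.

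Among receptors, channels and secreted factors, the differences were 4.79 for KCNK5, 3.68 for ADRA2A, 2.99 for STC1, 2.99 for NXPH3 (a secreted neurexophilin), 1.42 for ARTN, -2.26 for EDN2 (an endothelin) and -5.49 for NDP (norrin, a Frizzled ligand). Among enzymes, signalling and matrix genes, they were 3.67 for TGM2, 2.72 for RASGRP1, 2.97 for PLCL1 (phospholipase C-like), 3.30 for MAT1A (methionine adenosyltransferase), 3.53 for RAB19, 3.44 for COL27A1 (a fibrillar collagen), -2.76 for PIM1, -2.75 for MMP17, -2.66 for DHRS3, -3.81 for VARS (valyl-tRNA synthetase) and -5.09 for PGLYRP2. Among transcription factors and RNA-binding proteins, they were 1.69 for RUNX2, -3.08 for MN1, -2.60 for SOX18, -1.65 for CEBPD, -1.08 for MAFA, -5.71 for ZNF836, -3.10 for RBM24 and -2.95 for RBM20. The others were 5.83 for MAP6, 5.35 for FAM107A, 5.12 for FAM155A, 2.10 for LINC00673, -2.70 for FAM43A, -2.07 for PALMD and -1.55 for PRR15.

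For MAP6, FAM107A, FAM155A, ZNF836, NDP and PGLYRP2 a group had 0 counts in both libraries, so the fitted value depends on the prior count and is no bound on the fold. Other values rest on few counts and moved when 1 library was left out. RAB19 ranged from 2.81 to 6.57 and lost its call in 4 of the 8 fits, COL27A1 from 2.39 to 4.03 with the call lost in 5, and RBM20, with 0 and 4 counts in Ishikawa at 0 h, from -6.95 to -2.00 with the call lost in 5.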

How the results depend on the processing

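The count of 512 genes was 507 with RLE scaling, 557 with DESeq2 (495 shared), 457 with all 16 libraries in 1 fit (421 shared, 239 larger and 218 smaller in T-47D), 500 with thinned counts and 495 with at least 10 counts in every library. At an adjusted p under 0.01 it was 331 (141 larger and 190 smaller in T-47D), and with no filter on low counts 747, of which 388 were larger in T-47D (226 in the report) and 359 smaller, after 21511 genes were tested. With all 16 libraries the class down in T-47D and up in Ishikawa held 19 genes in place of 32. The cause of these shifts was not tested, apart from the threshold and the number of genes that the settings themselves change.

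Leaving out 1 library, which leaves its group with 1 sample assumed to vary like the others, gave 306 to 1058 genes in all, 132 to 443 larger and 168 to 615 smaller in T-47D. Larger changes outnumbered smaller ones without Ishikawa 0 h replicate 2 (323 and 308) and without Ishikawa 2 h replicate 2 (176 and 169). The 2 h change passed for 453 to 3126 genes in Ishikawa and 543 to 2155 in T-47D. The classes ranged from 83 to 199 (T-47D up alone), 40 to 151 (T-47D down alone), 85 to 335 (Ishikawa up alone), 22 to 175 (Ishikawa down alone), 5 to 34 (T-47D up and Ishikawa down), 13 to 65 (T-47D down and Ishikawa up), 22 to 69 (up in both) and 6 to 47 (down in both), and list members from 28 to 46 larger and 24 to 51 smaller. The upper ends came without Ishikawa 0 h replicate 1, except the class up in T-47D alone (without Ishikawa 0 h replicate 2). TOP2A went from -0.12 to 0.04 without Ishikawa 0 h replicate 2 and to -0.24, now called, without Ishikawa 0 h replicate 1.

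With the replicate number as a block within each line, 527 genes were called (486 shared), and of the 105 called named genes 3 lost the call (FAM107A, NDP and NOP16). Of those 105 genes, 65 kept the call in every alternative in which named genes were compared and had a value, and 105 kept their direction. Named genes were not compared with thinned counts, in subsets of the genes or at other thresholds. With 2 replicates per group, differences in genes under about 50 counts in a group rest on few reads and single libraries.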
